A study of Mus musculus with 24 samples.

Results

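The MYC network genes are 9 genes, picked by symbol from 51912 genes in the count tables: Myc, Mycn and Mycl, which encode c-MYC, N-MYC and L-MYC, their partner Max, the MXD genes Mxi1, Mxd1, Mxd3 and Mxd4, and Mga. Each symbol matched 1 row, so all 9 were counted in all 9 RNA-seq libraries. The libraries form 3 groups of 3. ESC are mouse embryonic stem cells of the wild-type TC-1 line (C57BL/6 X 129S5), grown on gelatin with LIF. NP are neuronal progenitors made from these cells, as whole aggregates collected at day 8 after 4 days in 5 µM retinoic acid. TET TKO are embryonic stem cells with a triple knockout of Tet1, Tet2 and Tet3 on a C57BL/6 X 129/sv background, and differ from ESC in line, strain mix and sequencing depth as well, so genotype, line, strain and depth cannot be told apart in that comparison. The series has 24 samples in all, the others being methylation assays of inserted DNA fragments.

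MYC proteins are basic helix-loop-helix leucine zipper factors that bind E-box DNA (CACGTG) only when paired with MAX, and as such pairs they drive ribosome production, metabolism and cell growth. MXD proteins and MNT also pair with MAX, bind the same E-boxes and recruit the SIN3 and HDAC corepressors, so that both kinds of pair compete for MAX and for DNA. MGA pairs with MAX as well, inside the repressive complex PRC1.6, which keeps germline genes silent in embryonic stem cells. In these cells MYC activity is tied to self-renewal, and N-MYC is known for its part in expanding neural progenitors.

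Gene counts summed to between 20570050 and 23976914 per ESC library, between 20519702 and 22132988 per NP library and between 80704741 and 93210102 per TET TKO library. Levels are given as RPKM, reads per kilobase of exon scaled to TMM-adjusted library size, and can be compared between genes. A gene was tested where at least 1 library of the 2 groups reached an RPKM of 1. Calls were made by 2 limits: the study's, which are an adjusted p under 0.001 with at least a 3-fold change, and an adjusted p under 0.05 alone. The 8 ESC markers summed to between 2486 and 2558 RPKM in ESC, between 59.6 and 79.3 in NP and between 2051 and 2882 in TET TKO. In TET TKO the sum was carried by Dppa5a, which was higher than in ESC (1445 against 984 RPKM on average), whereas 4 of the 8 markers were lower at an adjusted p under 0.05: Zfp42, Tbx3, Klf4 and Esrrb, at log2 fold changes of -2.70, -3.13, -1.06 and -0.72. The 7 neural progenitor markers summed to at most 5.82 RPKM in ESC and to between 148 and 249 in NP. NP aggregates also held genes listed as markers of other cells. The 5 endoderm markers summed to between 19.0 and 23.3 RPKM against at most 1.88 in ESC. Of these, Foxa2 averaged 10.3 RPKM in NP, Gata6 4.21 and Sox17 3.88. The 3 fibroblast collagens summed to 17.9, 35.1 and 3.00 RPKM in NP replicates 1 to 3 against at most 1.602 in ESC. The 5 neuron markers summed to between 64.6 and 164 RPKM in NP and between 70.0288 and 71.4 in ESC, where Tubb3 alone averaged 70.0184. The other 4 neuron markers, Dcx, Snap25, Syt1 and Rbfox3, were all higher in NP at an adjusted p under 0.05, at mean levels of 7.80, 0.978, 1.27 and 1.46 RPKM against 0.00238, 0.0486, 0.209 and 0.522 in ESC. The 3 glia markers summed to at most 7.53 RPKM in NP against 0.764 in ESC. Olig2 carried this sum, at 4.83 RPKM on average in NP against 0.0124 in ESC, and was the only glia marker tested there. The 3 mesoderm markers summed to at most 0.532 RPKM in NP against 1.67 to 2.69 in ESC. In TET TKO the neural progenitor, neuron, endoderm, mesoderm, fibroblast and glia sums were at most 18.2, 57.4, 1.49, 3.49, 3.28 and 1.43 RPKM. Every marker had at least 1 count in each group. In bulk RNA, fewer cells of a type and less RNA per cell cannot be told apart. As a check of the knockout, Tet1 was at 12.7, 15.3 and 10.9 RPKM in TET TKO against 62.4 to 69.6 in ESC, and Tet2 at 2.32, 2.57 and 2.23 against 16.4 to 21.4. Tet3 was at or below 0.782 RPKM in all libraries of both groups, and the deleted exons cannot be told from gene counts.

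There were 2 libraries that stood apart on these genes. NP replicate 1 was the highest of its group for Mycl, Mxi1, Mxd1, Mxd3 and Mxd4, and also held the largest neural progenitor sum. TET TKO replicate 3 was the lowest of its group for Myc, Mycn, Max, Mxd3, Mxd4 and Mga, and held the largest ESC marker sum, which Dppa5a dominates, 2882 RPKM against 2192 and 2051 in replicates 1 and 2. The part of cell makeup in these differences was not tested, and values without each library stand beside the members' results that they move.

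**Figure D1:**
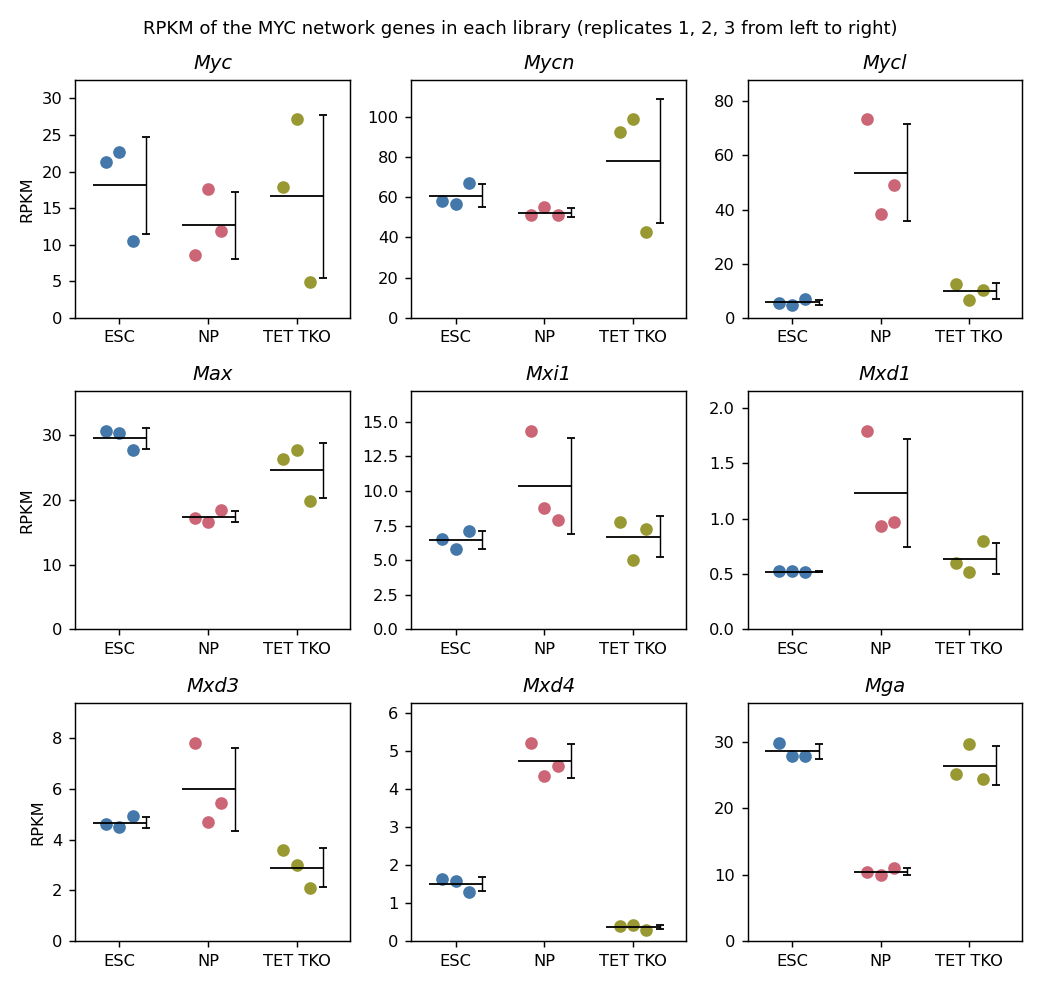
RPKM of each gene (vertical axes, each from 0) in the 3 libraries of ESC, NP and TET TKO. Points are libraries, the horizontal line is the mean of 3 and the bar beside it the SD. Mycl and Mxd4 in NP, and Mxd4 in TET TKO, lie apart from ESC, whereas the Myc points of all 3 groups overlap.

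In the comparison of NP with ESC the single genes are described after the counts, which for so few genes lie near those of all genes. Of the 9 genes, 4 were higher in NP at an adjusted p under 0.05 (Mycl, Mxd4, Mxd1 and Mxi1), where 32.5% of the 15197 genes tested were called higher, and 2 were lower (Max and Mga), where 31.5% were called lower. By the study's limits 2 were higher, Mycl and Mxd4, against 12.4% of all genes, and 0 were lower, against 9.98%. DESeq2 also called 0 lower by these limits, and 2 were lower at an unadjusted edgeR p under 0.05. The libraries did not overlap for 4 genes that were higher and 3 that were lower, against 35.8% and 36.1% of all genes tested. The median log2 fold change over the 9 genes was 0.36, beside 0.03 over all genes tested. Without NP replicate 1 the median over the 9 genes was 0.10.

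Mycl showed the largest rise. It encodes L-MYC, the MYC protein with the weakest transforming activity, and lies on chromosome 4 (GRCm38, 122995652 to 123002485, plus strand). Its level was 5.64, 4.79 and 6.76 RPKM in ESC and 73.3, 38.4 and 49.1 RPKM in NP. Each NP library lay far above the highest ESC library. The fitted change was 9.38-fold (log2 fold change 3.23 ± 0.26, SE, edgeR adjusted p = 1.52e-05), and 2.91 on the log2 scale (edgeR adjusted p = 2.7e-05) without NP replicate 1. The call by the study's limits was kept under all 13 alternative settings.

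Mycn, the N-MYC gene on chromosome 12 (12936093 to 12941914, minus strand), was the most abundant MYC gene in ESC. It stood at 58.2, 56.8 and 67.2 RPKM in ESC and at 51.3, 55.0 and 51.0 RPKM in NP. All 3 NP libraries lay below all 3 ESC libraries, by a small margin. The log2 fold change was -0.21 with a 95% interval from -0.46 to 0.04 (edgeR adjusted p = 0.124), so the difference did not pass the test, and a fall by more than 0.46 on the log2 scale lies outside the interval.

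Myc, on chromosome 15 (61985391 to 61990374, plus strand), varied more between replicates than between groups. Its level was 21.3, 22.6 and 10.5 RPKM in ESC and 8.52, 17.6 and 11.8 RPKM in NP. The lowest ESC library lay within the NP range. The log2 fold change of -0.51 ± 0.33 (SE) did not pass the test (edgeR adjusted p = 0.211). Without ESC replicate 3, the ESC library with least Myc, it was -0.79 (edgeR adjusted p = 0.048).

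The share of each gene in the summed RPKM of Myc, Mycn and Mycl put these levels on 1 scale. Mycn made up 68.3%, 67.5% and 79.6% of the sum in ESC and 38.5%, 49.5% and 45.5% in NP. Mycl went from 6.62%, 5.69% and 8.001% to 55.1%, 34.6% and 43.9%. No NP library overlapped the ESC libraries in either share. The sum itself was 84.6 ± 0.46 RPKM in ESC (SD, n = 3) and 119 ± 12.5 RPKM in NP (SD, n = 3), and the share of Myc was 21.4% ± 7.8 and 10.9% ± 4.7 (SD, n = 3 each). Thus Mycn and Mycl were near each other in NP, at 52.4 ± 2.3 and 53.6 ± 17.9 RPKM (SD, n = 3), a difference within the spread of Mycl. The shares are a description, with no test.

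**Figure D2:**
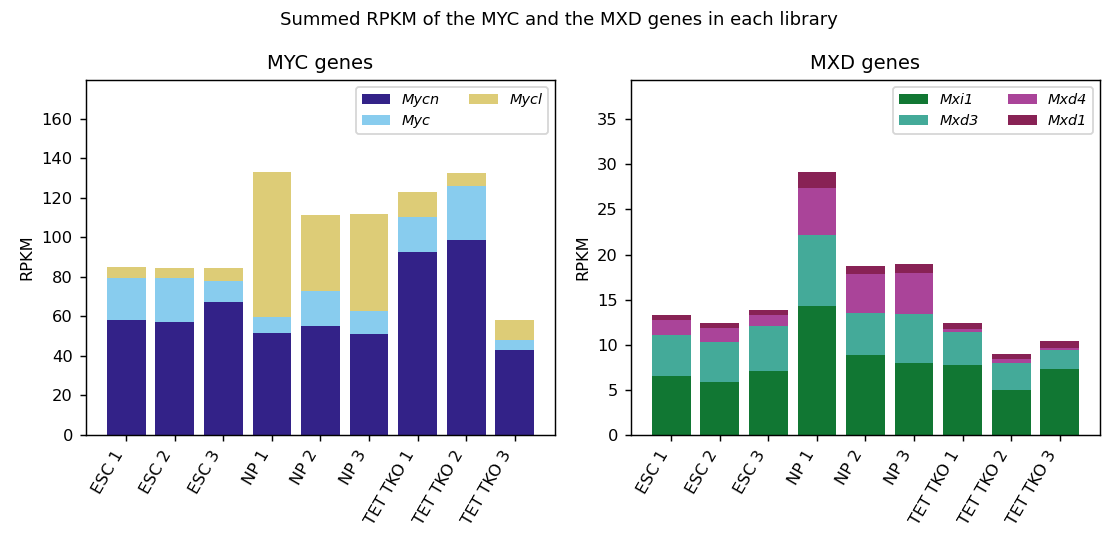
Summed RPKM (vertical axes, from 0) of the MYC genes (left) and the MXD genes (right) in each library, stacked by gene. Mycn fills most of each ESC and TET TKO column on the left, and Mycl joins it in NP, where the columns reach 111 to 133 RPKM against 84.2 to 85.1 in ESC.

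Max, the common partner, fell in NP. Its gene lies on chromosome 12 (76937269 to 76962201, minus strand). It stood at 30.6, 30.3 and 27.6 RPKM in ESC and at 17.2, 16.6 and 18.3 RPKM in NP, with no overlap. The change was 1.69-fold lower (log2 fold change -0.75 ± 0.11, SE, edgeR adjusted p = 0.000333). It passed an adjusted p of 0.05 under all 13 settings and never the study's limits, as the change is under 3-fold. The RPKM of the 3 MYC genes together was 2.88 ± 0.16 times that of Max in ESC and 6.84 ± 0.82 times in NP (SD, n = 3 each). These are ratios of transcript levels, and protein was not measured.

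Of the MXD genes, Mxd4 rose most. MXD4 is a MAX-binding repressor found in differentiating cells, and its gene lies on chromosome 5 (34173883 to 34187720, minus strand). It was low in ESC, at 1.62, 1.57 and 1.28 RPKM, and stood at 5.22, 4.35 and 4.61 RPKM in NP. The groups lay well apart. The change was 3.18-fold (log2 fold change 1.67 ± 0.16, SE, edgeR adjusted p = 3.86e-05). It is close to the 3-fold limit, and without NP replicate 1 (log2 fold change 1.57) or without ESC replicate 3 it was under that limit, with the adjusted p under 0.05 in all 13 settings.

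Mxd1 and Mxi1 rose by less, and their rise leaned on NP replicate 1. Mxd1, a repressor induced as many cell types stop dividing, was at 0.527, 0.525 and 0.514 RPKM in ESC and at 1.79, 0.933 and 0.972 RPKM in NP, from 76 to 88 counts per ESC library. Its log2 fold change was 1.24 ± 0.30 (SE, edgeR adjusted p = 0.0066), and 0.85 without NP replicate 1 (edgeR adjusted p = 0.0103). Mxi1, also called Mxd2, was the most abundant MXD gene, at 6.50, 5.82 and 7.12 RPKM in ESC and 14.3, 8.80 and 7.91 RPKM in NP. Its log2 fold change was 0.68 ± 0.22 (SE, edgeR adjusted p = 0.0266). That value was 0.35 without NP replicate 1 (edgeR adjusted p = 0.0472), and the call was lost without ESC replicate 1 (edgeR adjusted p = 0.0703) or replicate 2 (edgeR adjusted p = 0.087).

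Mxd3, an MXD gene known from proliferating cells in S phase, did not pass the test in NP. It stood at 4.596, 4.49 and 4.92 RPKM in ESC and at 7.83, 4.69 and 5.44 RPKM in NP, where replicate 2 lay within the ESC range. The log2 fold change was 0.36 ± 0.23 (SE, edgeR adjusted p = 0.198), and 0.10 without NP replicate 1. Mxd3 overlaps Prelid1 on the other strand, which had 2818 to 3974 counts per ESC or NP library beside 195 to 342 for Mxd3. Since the counts ignore strand, reads in the overlap cannot be assigned, and the level of Mxd3 is uncertain. Max, Mxi1, Mxd1 and Mxd4 each overlap 1 other gene as well. The gene over Max, Gm47218, had 25 to 213 counts per library, and those over the other 3 genes had 0 to 2. Reads in overlaps went to no gene, so these counts do not show how many reads were lost.

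The 4 MXD genes summed to 13.2 ± 0.72 RPKM in ESC and 22.3 ± 6.0 RPKM in NP (SD, n = 3 each). All NP libraries, at 29.2, 18.8 and 18.9 RPKM, lay above the highest ESC library at 13.8. The ratio of MYC to MXD transcripts was 6.43, 6.78 and 6.11 in ESC and 4.56, 5.92 and 5.91 in NP, a narrow gap with no overlap. This ratio includes Mxd3, whose level is uncertain. It leaves out the MAX-bound repressor gene Mnt, at 21.5 ± 1.5 RPKM in ESC and 15.9 ± 3.5 RPKM in NP (SD, n = 3 each). It is thus no measure of MYC against all MAX-bound repressors.

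Mga fell most. It encodes the largest protein of the network, a scaffold of PRC1.6 with a T-box besides its helix-loop-helix region, from chromosome 2 (119897228 to 119969581, plus strand). Its level was 29.9, 27.9 and 27.8 RPKM in ESC and 10.4, 9.97 and 10.995 RPKM in NP. The 3 values of each group lay within a narrow range. The change was 2.72-fold lower (log2 fold change -1.44 ± 0.10, SE, edgeR adjusted p = 8.62e-06), just short of 3-fold, and its adjusted p stayed at or below 0.000125 under all 13 settings.

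In ESC the order of mean levels was Mycn, Max, Mga, Myc, Mxi1, Mycl, Mxd3, Mxd4 and Mxd1, from 60.7 to 0.522 RPKM. Neighbours whose means differed by less than the larger of their SDs were Max and Mga (29.5 ± 1.6 and 28.5 ± 1.2 RPKM, SD, n = 3) and Mxi1 and Mycl (6.48 ± 0.65 and 5.73 ± 0.99 RPKM, SD, n = 3). In NP Mycl moved to the top beside Mycn, and Mga (10.4 ± 0.52 RPKM) fell to the level of Myc and Mxi1 (12.7 ± 4.6 and 10.3 ± 3.5 RPKM, SD, n = 3 each).

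The other MAX and MLX partners were read beside these genes. Mnt, the ubiquitous MAX-bound repressor, was 21.1, 20.1 and 23.1 RPKM in ESC and 19.7, 14.9 and 13.0 RPKM in NP (log2 fold change -0.43 ± 0.16, SE, edgeR adjusted p = 0.041). Mlx, the MAX-like partner of the glucose sensors, fell by 0.87 ± 0.16 on the log2 scale (SE, edgeR adjusted p = 0.00177), although it overlaps Psmc3ip on the other strand and is uncertain for that reason. Mlxipl, which encodes the sugar-responsive factor ChREBP, fell from 3.94, 3.98 and 3.81 RPKM to 1.04, 0.989 and 0.637 RPKM, a log2 fold change of -2.13 ± 0.22 (SE, edgeR adjusted p = 6.3e-05) and the only one of these 4 past the study's limits. Mlxip, encoding MondoA, had a log2 fold change of 0.30 ± 0.12 (SE) and did not pass (edgeR adjusted p = 0.0522).

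**Figure D3:**
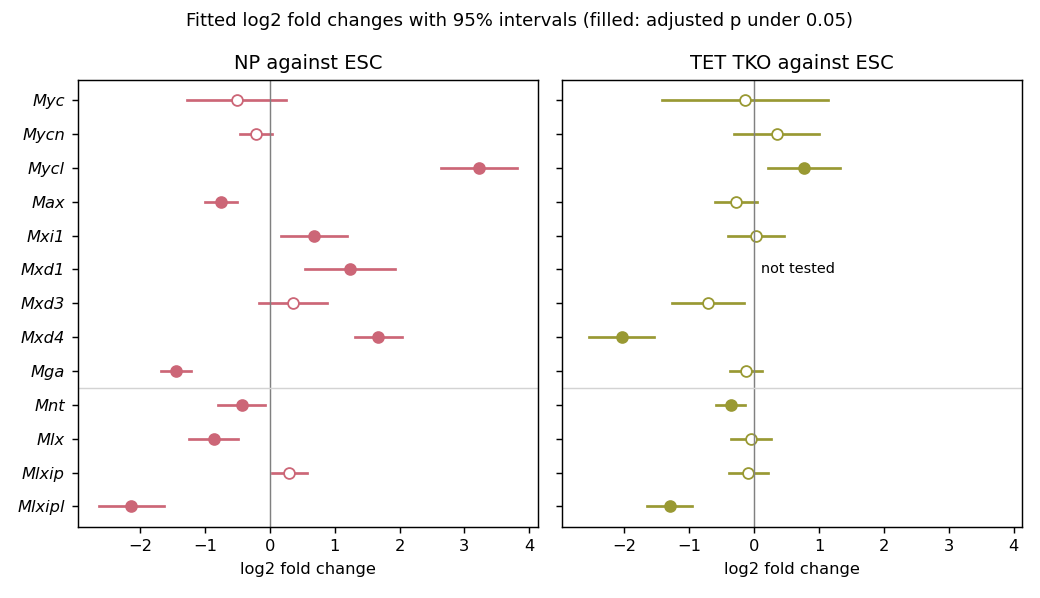
Fitted log2 fold changes (horizontal axes) of the 9 genes and, under the grey line, of Mnt, Mlx, Mlxip and Mlxipl in NP (left) and TET TKO (right) against the same 3 ESC libraries. Bars are 95% intervals and filled points have an adjusted p under 0.05, as for Mxd4, which is at 1.67 on the left and -2.04 on the right.

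Genes long known as MYC targets were then read in NP. The list held 52 nucleolar and growth genes, all tested, of which 41 were lower in NP and 3 higher at an adjusted p under 0.05. The shares were 78.8% and 5.77%, beside 31.5% and 32.5% of all genes tested. This list and those below were chosen with earlier results of these data known, so such shares are descriptions only. The median log2 fold change was -1.08, beside 0.03 over all genes, and -1.01 without NP replicate 1. The falls were led by Utp20 (log2 fold change -1.91 ± 0.21, SE), a factor of small ribosomal subunit assembly, Polr1b (-1.85 ± 0.14, SE), a subunit of RNA polymerase I, and Ung (-1.82 ± 0.12, SE), a uracil DNA glycosylase, with edgeR adjusted p of 8.1e-05, 1.03e-05 and 6.03e-06. The 3 that rose were Ccnd2, Cdk4 and Ldha, the last 2 named after their values were seen. Cdk4, the cyclin D-dependent kinase gene, rose by 0.77 ± 0.12 on the log2 scale (SE, edgeR adjusted p = 0.000607), and Ldha, a lactate dehydrogenase gene, rose by 0.58 ± 0.15 (SE, edgeR adjusted p = 0.00915). Ccnd2, the cyclin D2 gene, went from 2.20 ± 0.28 RPKM in ESC to 195 ± 22.6 RPKM in NP (SD, n = 3 each), a log2 fold change of 6.48 ± 0.17 (SE, edgeR adjusted p = 2.58e-07).

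Of 8 proliferation genes, 2 were lower (25.0%) and 1 higher (12.5%), shares under the 31.5% and 32.5% of all genes tested. The median log2 fold change was -0.26, and 4 genes were lower without NP replicate 1. Ccnb1, the mitotic cyclin B1 gene, fell by 0.90 ± 0.14 on the log2 scale (SE, edgeR adjusted p = 0.000514), and Birc5, the survivin gene, fell by 0.58 ± 0.17 (SE, edgeR adjusted p = 0.0142), whereas Mki67, the cycling-cell marker, rose by 0.41 ± 0.12 (SE, edgeR adjusted p = 0.0128). Of 7 genes known to be repressed by MYC, 4 were higher in NP (57.1%) and 3 lower (42.9%), with a median of 1.30, which was 1.04 without NP replicate 1. Cdkn1c, which encodes the cell cycle inhibitor p57, went from 8.78 ± 1.0 to 81.9 ± 37.4 RPKM (SD, n = 3 each), a log2 fold change of 3.23 ± 0.31 (SE, edgeR adjusted p = 3.87e-05). The 3 that fell were the stress-induced genes Ndrg2, Ndrg1 and Gadd45a, at log2 fold changes of -1.69, -1.61 and -0.58.

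Cofactors of the network were called in both directions, as were 32.5% (higher) and 31.5% (lower) of all genes tested. Among 13 MYC coactivators and cofactors 8 were lower (61.5%) and 1 higher (7.69%). The lower count was 5 without ESC replicate 1 and 4 without ESC replicate 2, and 9 by DESeq2 and 11 without NP replicate 1. Wdr5, a subunit of histone H3K4 methyltransferases that contacts MYC, went from 111 ± 8.6 to 40.5 ± 1.2 RPKM (SD, n = 3 each, log2 fold change -1.44 ± 0.10, SE, edgeR adjusted p = 9.05e-06). Actl6a and Bptf, of chromatin remodelling complexes, fell by 0.997 and 0.66 on the log2 scale, and Zbtb17, which encodes the MYC partner MIZ1, rose by 0.77 ± 0.17 (SE, edgeR adjusted p = 0.00409). Among 10 MXD and MNT corepressors 3 were lower (Sin3a at -0.97, Hdac1 and Ncor1 at -0.72 each) and 1 higher (Hdac2 at 0.64). The median of that list was -0.01.

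The partners of MGA in PRC1.6 did not all move with Mga. Of 10 partners 5 were higher and 3 lower in NP (3 higher without ESC replicate 1 or 3 and with the replicate block), and 3 passed the study's limits. L3mbtl2, a histone-binding subunit, went from 51.8 ± 3.5 to 9.95 ± 0.26 RPKM (SD, n = 3 each), a log2 fold change of -2.37 ± 0.11 (SE, edgeR adjusted p = 1.01e-06). Yaf2, which is interchangeable with RYBP, rose by 2.83 ± 0.16 on the log2 scale (SE, edgeR adjusted p = 3.17e-06), and the ubiquitin ligase subunit gene Ring1 rose by 1.92 ± 0.16 (SE, edgeR adjusted p = 1.7e-05). Rybp, named after its value was seen, had a log2 fold change of -1.30 ± 0.17 (SE, edgeR adjusted p = 0.00019). Of 11 genes for MYC protein turnover 5 were lower (45.5%, beside 31.5% of all genes) and 2 higher (18.2%, beside 32.5%). The deubiquitinase genes Usp28, Usp7 and Usp36 fell by 1.54, 1.43 and 0.66 on the log2 scale, and Gsk3b, the kinase that marks MYC for decay, rose by 1.17 ± 0.12 (SE, edgeR adjusted p = 5.11e-05).

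**Figure D4:**
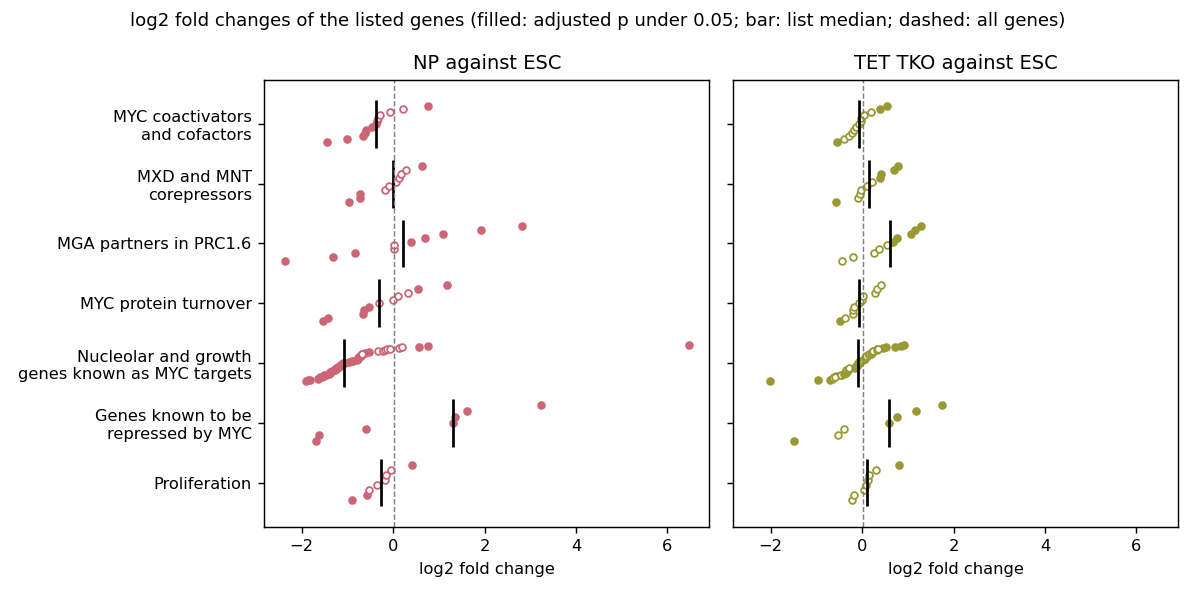
log2 fold changes (horizontal axes) of the genes in 7 lists in NP (left) and TET TKO (right) against ESC. Each point is a gene, filled where its adjusted p is under 0.05, the black bar is the list median and the dashed line the median of all genes tested. The nucleolar and growth genes lie mostly left of the line in NP (median -1.08), and around it in TET TKO (median -0.08).

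TET TKO was read against the same ESC libraries, so both comparisons share their controls. Genotype, line, strain and depth cannot be told apart in the differences that follow. Of the 9 genes, 8 were tested in TET TKO; Mxd1 was left out because all libraries were under an RPKM of 1. At an adjusted p under 0.05, 1 was higher (Mycl) and 1 lower (Mxd4), where 17.6% and 16% of 13939 genes were called. By the study's limits 0 were higher and 1 was lower, Mxd4, against 0.847% and 1.29% of all genes. DESeq2 also called 0 higher by these limits, and 1 was higher at an unadjusted edgeR p under 0.05. The libraries did not overlap for 0 higher and 2 lower genes (Mxd3 and Mxd4), against 26.4% and 24.3% of all genes. Scaling on all genes in place of the genes tested moved the calls over all genes from 2450 higher and 2227 lower to 3183 and 1770, and left the 2 calls among these genes in place.

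Mxd4 was the gene that changed most. Its level was 0.393, 0.409 and 0.297 RPKM in TET TKO, from 226 to 268 counts per library, against 1.28 to 1.62 RPKM in ESC. Every TET TKO library lay far below the lowest ESC library. The change was 4.11-fold lower (log2 fold change -2.04 ± 0.22, SE, 95% interval -2.54 to -1.54, edgeR adjusted p = 0.000686). The log2 fold change stayed between -2.13 and -1.91 under all 14 settings and its adjusted p at or below 0.00676, while the study's limits were missed in the 5 settings that left out an ESC library or TET TKO replicate 1 or 2. Against the same ESC libraries Mxd4 was thus 3.18-fold higher in NP and 4.11-fold lower in TET TKO.

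An E-box is the DNA site that the network's MAX pairs bind, and its 2 matches among the members' promoters are shown. Of the 9 genes, 8 had a RefSeq promoter (GRCm38.p6, from 250 bases before to 50 after the start site), 10 windows in all. The letters CACGTG, which read the same on both strands, were in the windows of 2 genes, Max and Mxd4, and 7.15% of the 32851 promoters in the table hold them. Among the other MAX and MLX partners, Mnt, Mlx and Mlxipl had a window with these letters too, and Mlxip did not. The windows below are written 5′ to 3′ on the minus strand, with the E-box in capitals, Mxd4 from chr5:34187867-34187960 and Max from chr12:76962234-76962263.
Mxd4: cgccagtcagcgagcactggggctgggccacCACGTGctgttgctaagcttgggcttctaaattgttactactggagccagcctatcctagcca
Max: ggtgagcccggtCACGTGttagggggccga
The E-box began 219 bases before the start site in Mxd4 and 3 bases before it in Max. A match describes letters only, and no binding was measured at either gene. The windows of these 8 genes were rich in CpG, the dinucleotide whose methylated form TET enzymes oxidise: they held 14 to 49 CpGs (median 23), beside a median of 7 over all promoters. The Mxd4 window held 18, under that median of 23. Methylation of these promoters was not read, and its part in any change of level was not tested.

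Mycl was at 12.4, 6.74 and 10.4 RPKM in TET TKO against 4.79 to 6.76 in ESC. Replicate 2 lay within the ESC range. The log2 fold change of 0.76 ± 0.24 (SE) passed narrowly (edgeR adjusted p = 0.0419) and failed in 7 of 14 settings, where the adjusted p reached 0.141. Its share of MYC transcripts was 10.1%, 5.08% and 17.9%, beside 5.69 to 8.001% in ESC.

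Mycn and Myc both varied widely between TET TKO libraries. Mycn stood at 92.6, 98.8 and 42.8 RPKM, the first 2 above and the last below all ESC libraries. The log2 fold change was 0.35 ± 0.28 (SE, edgeR adjusted p = 0.377), and 0.63 ± 0.10 (SE, edgeR adjusted p = 0.00403) without TET TKO replicate 3, so the call turns on 1 library. Myc was at 17.9, 27.1 and 4.93 RPKM, a range that spans that of ESC. Its log2 fold change was -0.14 ± 0.55 (SE, edgeR adjusted p = 0.87), with an interval from -1.42 to 1.14, and it was 0.29 without replicate 3. The share of Mycn among MYC transcripts was steadier than its level, at 75.4%, 74.5% and 73.6%, since Myc and Mycn were both low in replicate 3. The 3 MYC genes summed to 123, 133 and 58.2 RPKM.

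Max, Mxi1, Mxd3 and Mga did not pass the test in TET TKO. Max was at 26.3, 27.6 and 19.7 RPKM (log2 fold change -0.28 ± 0.14, SE, edgeR adjusted p = 0.157). Mga was at 25.2, 29.7 and 24.4 RPKM, with a 95% interval of the log2 fold change from -0.37 to 0.12. Mxi1 was at 7.79, 5.01 and 7.28 RPKM, with a log2 fold change of 0.03 and an interval from -0.40 to 0.46. Mxd3, uncertain because of its overlap, was at 3.59, 2.99 and 2.08 RPKM, all under the lowest ESC library (log2 fold change -0.71 ± 0.24, SE, edgeR adjusted p = 0.0515), and passed in 5 of 14 settings.

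Mxd1 stood at 0.603, 0.517 and 0.794 RPKM in TET TKO beside 0.514 to 0.527 in ESC, where replicate 2 overlapped ESC. The MXD sum was 12.4, 8.92 and 10.4 RPKM, so that replicate 1 was level with the lowest ESC library (12.4 RPKM) and the others lay below it.

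Of the other partners, Mlxipl was at 1.57, 1.46 and 1.78 RPKM in TET TKO against 3.81 to 3.98 in ESC (log2 fold change -1.30 ± 0.15, SE, edgeR adjusted p = 0.000948), under the study's 3-fold limit. Mnt was at 17.1, 16.1 and 17.4 RPKM, a log2 fold change of -0.36 ± 0.10 (SE, edgeR adjusted p = 0.025). Mlx and Mlxip had log2 fold changes of -0.05 and -0.09, whose sign turned under other scalings.

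Of the 52 nucleolar and growth genes 6 were higher (11.5%) and 7 lower (13.5%) in TET TKO, near the 17.6% and 16% of all genes. The counts were 3 and 1 without ESC replicate 1, 4 and 2 without ESC replicate 2, 4 and 3 without ESC replicate 3, 6 and 12 without TET TKO replicate 2, 10 and 8 without TET TKO replicate 3, where the median was 0.06, and 6 and 11 with the replicate block. With all libraries the list had a median log2 fold change of -0.08 that became 0.03 under scaling on all genes. Odc1, the rate-limiting enzyme gene of polyamine synthesis, rose by 0.92 ± 0.19 on the log2 scale (SE, edgeR adjusted p = 0.00977), Npm1, the nucleophosmin gene, rose by 0.85 ± 0.10 (SE, edgeR adjusted p = 0.000891) and Hk2, the hexokinase 2 gene, rose by 0.72 ± 0.19 (SE, edgeR adjusted p = 0.022). Ccnd2 fell by 2.02 ± 0.46 (SE, edgeR adjusted p = 0.014), from 2.20 ± 0.28 to 0.550 ± 0.32 RPKM (SD, n = 3 each). Tfb2m and Rrp9, a mitochondrial transcription factor gene and a small nucleolar ribonucleoprotein gene, fell by 0.96 and 0.71. Of 8 proliferation genes 1 was higher, the replication helicase gene Mcm2 at 0.80 ± 0.12 (SE, edgeR adjusted p = 0.00276). By edgeR 0 were lower, as by DESeq2 and at an unadjusted p under 0.05.

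Over all genes tested, 17.6% were called higher and 16% lower in TET TKO, the shares that stand beside each list here. Of the 7 genes known to be repressed by MYC, 4 were higher (57.1%) and 1 lower (14.3%) in TET TKO. The higher count was 1 without ESC replicate 1 and 2 without ESC replicate 2 or 3 or TET TKO replicate 1. Gadd45a, whose protein takes part in stress and DNA repair, went from 9.11 ± 1.5 to 30.8 ± 2.4 RPKM (SD, n = 3 each), a log2 fold change of 1.74 ± 0.15 (SE, edgeR adjusted p = 0.000344). Cdkn1c fell by 1.49 ± 0.25 on the log2 scale (SE, edgeR adjusted p = 0.00378). Of the 10 MGA partners 5 were higher and 0 lower by edgeR (0 lower by DESeq2, 1 at an unadjusted p under 0.05), with a median of 0.61. The higher count was 3 without any 1 ESC library or TET TKO replicate 1, 7 by DESeq2 and 8 under scaling on all genes. The rises were led by Cbx3, a heterochromatin protein gene, at 1.29 ± 0.16 (SE, edgeR adjusted p = 0.00112), Tfdp1, the partner gene of the E2F factors, at 1.15 ± 0.18 (SE, edgeR adjusted p = 0.00284) and Rybp at 1.08 ± 0.15 (SE, edgeR adjusted p = 0.00224). Over all genes tested the median was 0.02. Of 10 corepressors 4 were higher (2 without ESC replicate 1), with Sin3b at 0.78, Hdac1 at 0.69 and Hdac2 at 0.42, and 1 was lower, Sin3a at -0.57. Among 13 coactivators 2 were higher (0 without ESC replicate 1, 1 without ESC replicate 2 or 3 or TET TKO replicate 1), Ruvbl1 at 0.55 and Kat2a at 0.39, and 1 lower, Wdr5 at -0.54 (3 lower without TET TKO replicate 2). With all libraries these shares, 15.4% and 7.69%, lay under those of all genes. Among 11 turnover genes 1 was lower, the ubiquitin ligase gene Stub1 at -0.48, and 0 without ESC replicate 1 or 2. That share with all libraries, 9.09%, was under the 16% of all genes.

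Genes with the most similar profiles over the 9 libraries were named for the 3 MYC genes. Nearness was the root mean square difference of log2(RPKM + 0.1) profiles after centring. The search covered 13522 other genes, which were those tested in both comparisons and Mxd1. For Mycl the nearest genes were Nsmf, Wnk2 and Gpsm1, with differences of 0.20, 0.20 and 0.22. Nsmf, for instance, was at 1.33 to 1.70 RPKM in ESC, 10.02 to 14.997 in NP and 1.41 to 2.68 in TET TKO. For Mycn they were Celf4, BC051226 and Msantd2, at 0.15, 0.16 and 0.19, and each was lowest in TET TKO replicate 3, as Mycn was. For Myc they were Lpar4, Mns1 and Timm10, at 0.41, 0.43 and 0.43, so no gene lay as near to Myc as to the other MYC genes. These differences describe 9 libraries in 3 groups, which share their group means.

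The motif bound by N-MYC was also one of those placed in inserted DNA fragments, read in 1 table per condition, whose sequencing runs were summed here, as the study pooled its replicates, so that no spread between runs or replicates is given: in ESC that received unmethylated fragments, methylation over 40 CpGs averaged 83.4% with the motif (95% Wilson interval 68.05 to 91.3% at the median of 40 reads per CpG, counting error only) and 54.1% with its scrambled form (42.5 to 66.6%, 62 reads). A median of 10 reads for both forms in the same sequencing run was reached in only 1 run of each ESC table. It was reached in 1 run of the TET TKO table and 0 runs of the NP tables, so motif and run cannot be fully told apart. With fragments methylated beforehand by M.SssI, motif and scrambled form averaged 33.5% and 46.0% in ESC and 96.5% and 73.8% in TET TKO. These differences, motif minus scrambled, were -12.5 ± 16.7 percentage points in ESC and 22.8 ± 7.6 points in TET TKO (95% half-interval, counting error only). In NP they were -11.9 ± 24.2 and 1.71 ± 4.2 points with unmethylated and methylated fragments. The study called hypomethylated regions at this motif in ESC with methylated and in NP with unmethylated fragments. It tested smoothed single CpGs, a measure unlike these means.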

How the data were processed

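Gene counts were deposited by the authors, who trimmed 50-base single-end reads (Trimmomatic 0.38), aligned them to GRCm38 with STAR 2.6.1b and counted reads per Ensembl 89 gene with featureCounts 1.6.2 without strand. Reads in overlapping genes went to none. RPKM was computed here from these counts and gene lengths. Counts were fitted with edgeR 4.0.16 (quasi-likelihood F-test, R 4.3.3), 3 libraries against 3, with p-values adjusted by Benjamini-Hochberg over all genes tested. DESeq2 1.42.0 was an alternative. TMM factors came from the genes tested. A first run took them from all genes; the choice was made after its call counts had been seen. The fit was tested on simulated data. Depth was 20519702 to 23976914 counts per ESC or NP library and 80704741 to 93210102 per TET TKO library. The study's methods call the replicates biological; the labels do not say whether they were separate cultures. Differentiation times and doses came from the study's methods.

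Members and lists were chosen with earlier results of these data known. The rule named all 9 genes, Mnt, Mlx, Mlxip and Mlxipl, up to 3 called genes per list and direction, and the 3 nearest profiles for each MYC gene. For the inserted fragments, the deposited tables of reads and methylated reads per CpG were summed over runs, and CpGs with at least 10 reads in both fragments were averaged. Promoters came from RefSeq (GRCm38.p6).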

Additional observations from a re-analysis of the deposited data

How the results depend on the processing

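The rises of Mycl, Mxd4 and Mxd1 and the falls of Max and Mga in NP, and the fall of Mxd4 in TET TKO, kept their direction and an adjusted p under 0.05 in every setting run. In TET TKO against ESC, DESeq2 called 404 genes higher and 506 lower by the study's limits, no filter on low values called 574 and 689, with 3755 higher at an adjusted p under 0.05, and the replicate block called 255 and 334. In NP, 2588 genes were lower by the study's limits without a filter and 863 with at least 10 counts in every library. Mycl in TET TKO had log2 fold changes of 0.71 with library sizes alone and 0.77 with all 3 groups in the fit, both with an adjusted p above 0.05. Mxd3 in TET TKO passed with library sizes alone (-0.77), DESeq2 (-0.72), the replicate block (-0.74) and counts thinned to the ESC depth (-0.86). Values that changed sign, none past the threshold, were Mxi1 in TET TKO at -0.022 with library sizes alone, and Mlx and Mlxip at 0.057 and 0.020 with scaling on all genes (an alternative chosen after seeing the data) and at 0.057 and 0.020 with no filter. For the N-MYC motif in NP with unmethylated fragments, the difference was -40.9 points at a minimum of 20 reads. The cause of these changes was not tested.

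With 1 library left out, log2 fold changes in NP ran from -0.85 to -0.31 for Myc and from 0.35 to 0.83 for Mxi1. In TET TKO they ran from -0.68 to 0.29 for Myc, 0.15 to 0.63 for Mycn, 0.57 to 0.99 for Mycl, -0.10 to 0.21 for Mxi1, -0.90 to -0.53 for Mxd3, -0.12 to 0.065 for Mlx and -0.18 to 0.032 for Mlxip. Counts of genes in TET TKO ran from 10 to 121 higher and 37 to 184 lower by the study's limits (lowest without ESC replicate 1), and from 1203 to 2644 higher and 1157 to 2485 lower at an adjusted p under 0.05.

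The labels give replicate numbers and no pairing. Deviations of same-numbered libraries correlated at -0.06, 0.01 and -0.13 between ESC and NP. Between ESC and TET TKO they correlated at -0.09, 0.34 and 0.24, where pairs of different number ran from -0.42 to 0.21. Whether same-numbered libraries of ESC and TET TKO share a source of variation was not tested. The replicate block changed 1 call among the 9 genes, Mxd3 in TET TKO. Not every library correlated best with its own number in either comparison. With 3 libraries a group, Myc could differ by over 2-fold in TET TKO within its interval, and the depth of the N-MYC fragments limits their differences.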
